A study of Bos taurus with 8 samples.

Results

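The miR-26 microRNAs of rumen fluid were examined as the rows named bta-miR-26a, bta-miR-26b or bta-miR-26c in the count tables of 8 small RNA libraries. Of these 3 names, 2 were listed, bta-miR-26a and bta-miR-26b, among 565 miRNA entries in all and 377 that reached 10 reads in 1 library or more. No row of bta-miR-26c stood in any of the 8 tables analysed here. The smallest count listed in each table was 2 reads, so entries with fewer reads were not listed, and no level is given for bta-miR-26c. The libraries came from 4 adult, non-lactating, ruminally cannulated Holstein cows, sampled first on day 7 of a forage diet (0% concentrate) and later on day 1 of the full high-grain (HG) diet with 65% concentrate, 4 h after the morning feed on both occasions. Each diet has 4 libraries, 1 per cow, numbered alike on both diets. Libraries with the same number were taken to come from the same cow, which the labels do not state. All cows received forage first and were stepped up to grain, so diet and order of sampling cannot be told apart. The samples are rumen fluid drawn from the ventral sac, in which fewer cells of a type and less RNA per cell cannot be told apart either.

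MicroRNAs of the miR-26 family act mainly through the seed, a short stretch near the 5′ end that miR-26a and miR-26b have in common, and are therefore expected to bind largely the same target mRNAs. A well-known target is EZH2, the methyltransferase of Polycomb repressive complex 2. The genes lie within those of the CTDSP phosphatases, which act on the tail of RNA polymerase II, and are transcribed together with them. The family is present in most mammalian tissues and tends to increase as cells differentiate.

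In the sRNAbench tables bta-miR-26a was placed on chromosome 5 of UMD3.1, at chr5:55977936-55977957 on the plus strand, in the precursor bta-mir-26a-2. Bta-miR-26b was placed at chr2:107133408-107133429, also on the plus strand. In RefSeq's gene table (assembly ARS-UCD2.0), which was used for names and neighbours alone, MIR26A-2 lies within the span of CTDSP2 and MIR26B within that of CTDSP1. The other precursor of miR-26a, MIR26A-1, lies within CTDSPL on chromosome 22 and occupies the same interval as MIR26C. Whether these genes are exonic or intronic was not determined, and the mature sequences are not shown.

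Total depth was 1407364 to 4972762 reads per library, of which 300116 to 522804 were miRNA reads. HG replicate 2 stood apart from the other libraries. Over bovine entries that shared no reads with other entries, chi-square divided by its degrees of freedom was 23.7 to 28.7 for the 7 pairs with HG replicate 2 and 0.993 to 2.40 for the 21 other pairs. Markers of erythrocytes (3 of 3 detected) summed to 14.98% of the miRNA reads in HG replicate 2 and to 19.8 to 20.6% in the others. Leukocyte markers (6 of 6) summed to 1.87% there and 2.26 to 2.33% elsewhere, although bta-miR-142-3p (0.124% against a forage mean of 0.103%) and bta-miR-146a (0.145% against 0.101%) were higher there. Markers of epithelium (6 of 7, bta-miR-203 not listed) summed to 2.80% against 2.04 to 2.13%, and those of stroma and smooth muscle (7 of 7) to 9.13% against 6.58 to 7.08%. In these lists 5 of 6 epithelial and 6 of 7 stromal markers were above their forage mean in HG replicate 2, and 3 of 3 erythrocyte markers were below it. The part of these sources in the miR-26 values was not tested.

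Bta-miR-26a was an abundant miRNA of rumen fluid on both diets and ranked 4 among the bovine entries in each of the 8 libraries. It had 23656, 24856, 21963 and 15914 reads in forage replicates 1 to 4, and 14597, 15874, 18748 and 18928 in HG replicates 1 to 4, which makes 154536 reads in all. Its share of the miRNA reads of a library was 4.79, 4.75, 4.82 and 4.80% on forage. Under HG feeding it was 4.86, 4.72, 4.80 and 4.88%. The groups overlapped, with both the lowest and the highest share on the HG diet. The mean was 4.79% ± 0.0255 for forage (SD, n = 4) and 4.82% ± 0.0710 for HG (SD, n = 4). The share was higher on the HG diet in 2 of 4 cows, by 0.0271 percentage points on average (exact sign-change permutation test over the 4 pairs, two-sided, p = 0.5), but relative to all reads of a library its mean was 0.835% for forage and 0.658% for HG. With 4 pairs the smallest p this test can give is 2 of 16 sign patterns, so it cannot reach 0.05. The difference was 0.0105 without cow 1, 0.0468 without cow 2, 0.0421 without cow 3 and 0.00884 without cow 4. All p-values here measure only the spread between these 4 cows.

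Bta-miR-26b, the paralogue encoded within CTDSP1, was less abundant, with 33196 reads in all and rank 20 among the bovine entries. It held 5186, 5376, 4798 and 3399 reads in the forage libraries and 3000, 3272, 4030 and 4135 in the HG libraries. These were 1.05, 1.03, 1.05 and 1.02% of a forage library's miRNA reads. In the HG libraries they were 0.9996, 0.973, 1.03 and 1.07%. The HG libraries again spanned the range of the forage libraries, with HG replicate 2 lowest. The mean share was 1.04% ± 0.0143 for forage (SD, n = 4) and 1.02% ± 0.0398 for HG (SD, n = 4), higher under HG in 1 of 4 cows (mean difference −0.0211 percentage points, exact sign-change permutation test, two-sided, p = 0.375). This difference was −0.0115 without cow 1, −0.00978 without cow 2, −0.0212 without cow 3 and −0.0418 without cow 4.

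**Figure D1:**
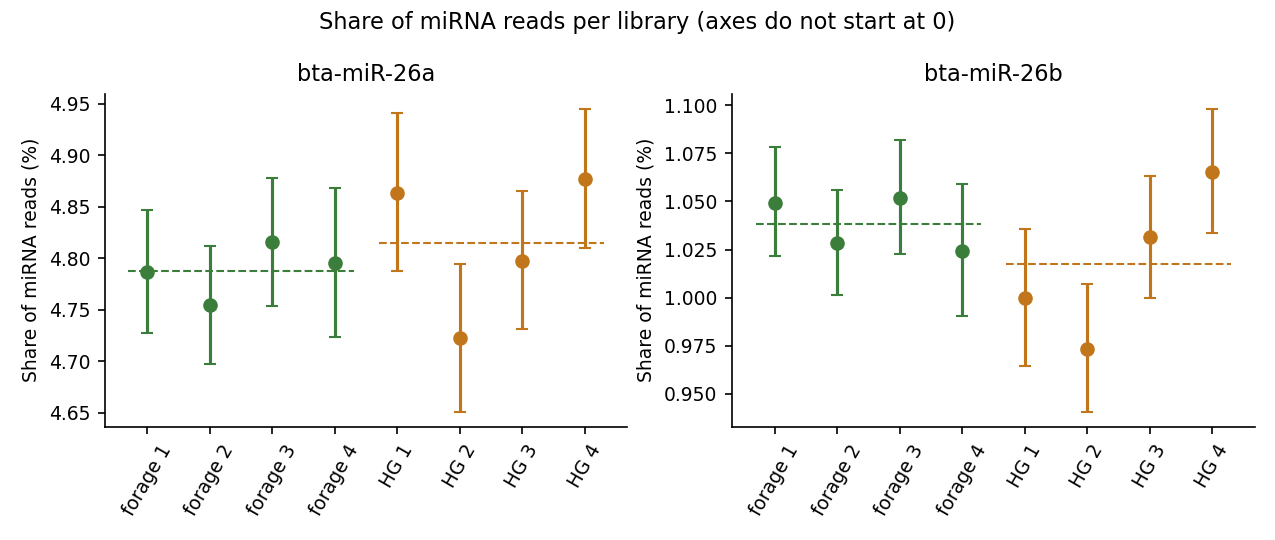
Share of miRNA reads (%) of bta-miR-26a (left) and bta-miR-26b (right) in each library, with 95% Wilson intervals as bars, which cover counting error only, and the mean of each diet as a dashed line. The forage libraries lie close together, at 4.75 to 4.82% and 1.02 to 1.05%, and the HG libraries span 4.72 to 4.88% and 0.973 to 1.07%.

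The spread of the share was set beside that of counting, as a description over 4 libraries a diet. On the forage diet the SD for bta-miR-26a was 0.0255 percentage points, where binomial sampling of the reads alone gives 0.0323. For bta-miR-26b it was 0.0143 against 0.0153. On the HG diet the SD was 0.0710 for bta-miR-26a against 0.0362 from sampling, and 0.0398 for bta-miR-26b against 0.0170. Without HG replicate 2, the HG values were 0.0425 against 0.0361 for bta-miR-26a and 0.0329 against 0.0170 for bta-miR-26b. Amplified reads are not independent molecules, and the sampling values cover counting error only.

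Among the 125 bovine entries with at least 1000 reads over the 8 libraries, bta-miR-26a had the smallest coefficient of variation (CV) of the share, 1.07%, and bta-miR-26b ranked 10 from the least variable with 2.91%. The median CV was 9.31%. Without HG replicate 2, bta-miR-26a had a CV of 0.904% and ranked 3, and bta-miR-26b had 2.10% and ranked 27, where the median was 4.05%. Counting alone gives a CV of about 0.719% for bta-miR-26a and 1.55% for bta-miR-26b over the 8 libraries, and rarer entries have a larger counting part. Of the 10 entries with the most reads, the next least variable was bta-let-7a-5p with 1.14%, while the erythroid bta-miR-451 had 9.44%, bta-miR-21-5p 10.5% and the smooth muscle bta-miR-143 12.04%. These last CVs rested on HG replicate 2: without it they were 1.42, 1.46 and 2.77%, and bta-let-7f (0.624%) and bta-miR-30e-5p (0.593%) lay below bta-miR-26a. All CVs and ranks up to here are of the share alone. In CPM (counts scaled with TMM, described below) the CV over the 8 libraries was 4.689% for bta-miR-26a and 3.597% for bta-miR-26b. The order of the paralogues thus turned on that scale, on which the other entries were not ranked.

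**Figure D2:**
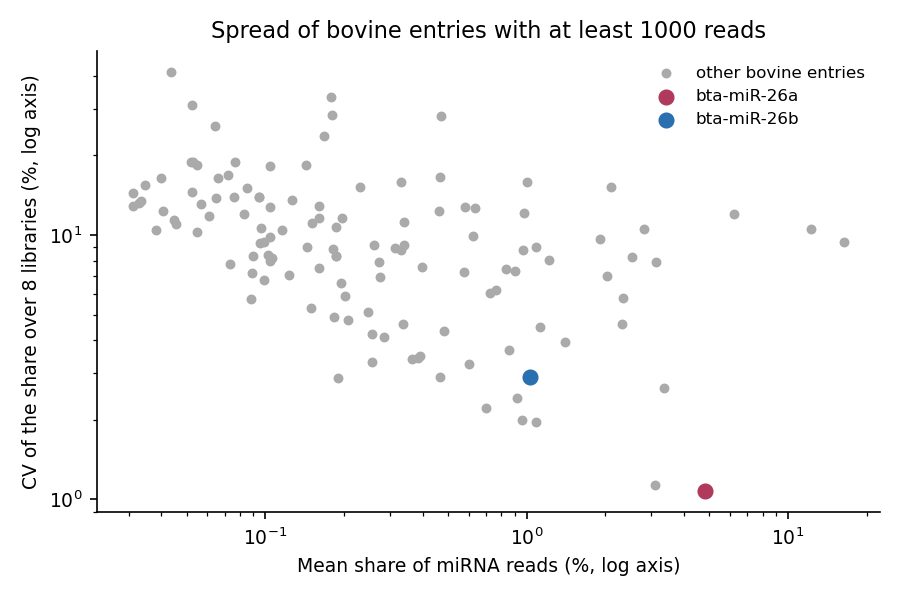
CV of the share of miRNA reads over the 8 libraries (%, log axis) against the mean share (%, log axis) for 125 bovine entries with at least 1000 reads. Bta-miR-26a, at a mean share of 4.80%, lies lowest with a CV of 1.07%, and bta-miR-26b, at 1.03%, lies at 2.91%. This holds for the share: in TMM-normalized CPM, not drawn here, the CVs were 4.689% for bta-miR-26a and 3.597% for bta-miR-26b.

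Relative to all reads of a library, which include reads of other origin, the same counts varied widely. Bta-miR-26a ranged from 3200 to 14029 RPM (reads scaled to all reads of the library) for forage and from 4073 to 13321 RPM for HG. Bta-miR-26b ranged from 684 to 3076 RPM and from 839 to 2864 RPM. Forage replicate 1 and HG replicate 3 were highest for both paralogues. On this scale the direction of bta-miR-26a turned, with a mean difference of −0.177 percentage points (higher under HG in 2 of 4 cows, exact sign-change permutation test, two-sided, p = 0.75). For bta-miR-26b the difference was −0.0421 percentage points (0.182% and 0.140%, higher under HG in 2 of 4 cows, exact sign-change permutation test, two-sided, p = 0.75). In forage replicate 1 and HG replicate 3, miRNA reads made up 29.3 and 27.8% of all reads, while in the other 6 they made up 6.67 to 17.4%. The highest value was 4.38 times the lowest for bta-miR-26a on this scale and 1.03 times on the scale of miRNA reads.

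CPM, the counts scaled to library size, here with TMM, a method that takes most entries to be equal between libraries, gave another order for HG replicate 2. Library size was the sum of counts over the entries tested. Reads counted at several entries enter this sum more than once, with 1.45 (HG replicate 2) to 1.53 (forage replicate 4) counts per miRNA read. CPM and share therefore have different denominators. Bta-miR-26a had 30786, 31083, 31328 and 31083 CPM in the forage libraries and 31488, 35327, 30949 and 31780 in the HG libraries. Bta-miR-26b had 6749, 6723, 6844 and 6639 CPM, then 6471, 7282, 6653 and 6943. HG replicate 2 was thus the highest library for both paralogues in CPM and the lowest for both in share of miRNA reads. Against the mean of the other 7 libraries, bta-miR-26a in HG replicate 2 was 1.13-fold in CPM and 0.981-fold in share. For bta-miR-26b the values were 1.08-fold and 0.940-fold. The share of the median entry was 0.19 lower there on the log2 scale (311 entries with at least 5 reads in every library, log2 ratio −0.19), and its CPM differed by 0.01. The share of bta-miR-26a differed by −0.03 and that of bta-miR-26b by −0.09, so both lay above the median entry on either scale. The authors' normalized counts, made from divided reads with DESeq2 size factors, likewise put HG replicate 2 highest, at 5282 for bta-miR-26a against 4657 to 4773 in the other libraries.

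**Figure D3:**
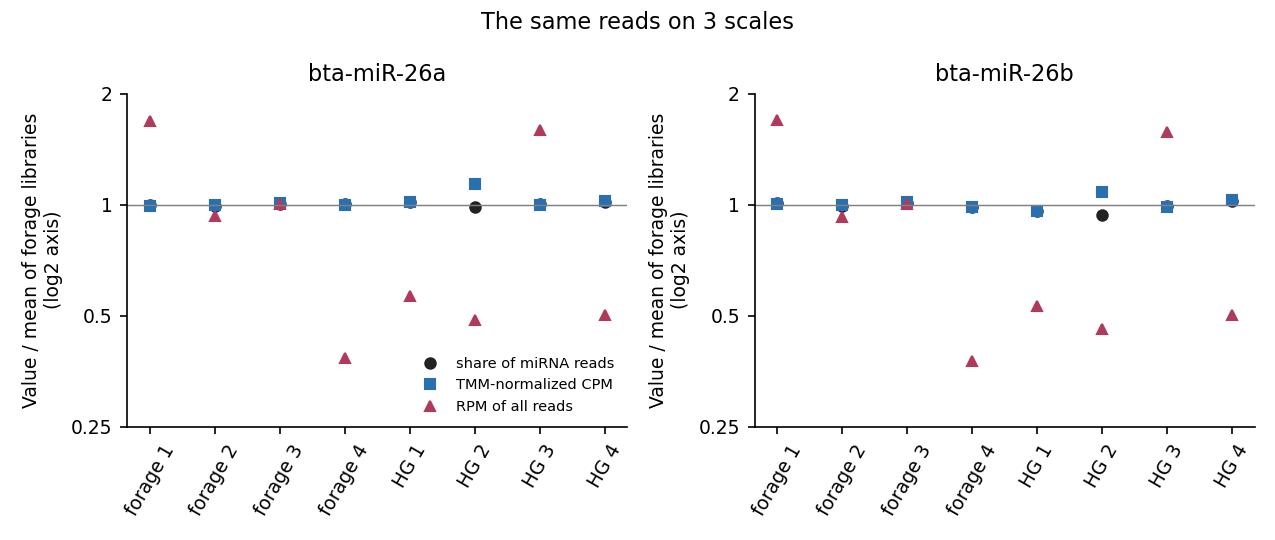
Bta-miR-26a (left) and bta-miR-26b (right) in each library, as the ratio to the mean of the forage libraries (log2 axis), for the share of miRNA reads (circles), TMM-normalized CPM (squares) and RPM of all reads (triangles). Circles and squares separate only in HG replicate 2, where bta-miR-26a has 35327 CPM and a share of 4.72%, while the triangles spread from 3200 to 14029 RPM for bta-miR-26a.

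Diet was then tested across all 377 entries by the quasi-likelihood test of edgeR, with cow and diet in the model. At an adjusted p under 0.05, 0 of the 2 paralogues were called, beside 0% of all entries tested (0 of 377). At an unadjusted p under 0.05 it was 0 of 2, beside 2.39% of all entries (9 of 377), and DESeq2 called 0 entries at its adjusted p and 3 at an unadjusted p under 0.05. Bta-miR-26a had 31070 ± 222 CPM for forage and 32386 ± 1990 CPM for HG (SD, n = 4). Its log2 fold change was 0.06 (SE 0.04, unadjusted p = 0.219, edgeR adjusted p = 0.788). Bta-miR-26b had 6739 ± 84.4 CPM for forage and 6837 ± 354 CPM for HG (SD, n = 4). Its log2 fold change was 0.02 (SE 0.05, unadjusted p = 0.699, edgeR adjusted p = 0.890). The median over all 377 entries was 0.03, and 15 entries had a smaller standard error (SE) than bta-miR-26a. Without cow 2, which contributed HG replicate 2, the log2 fold change of bta-miR-26a was 0.01 and that of bta-miR-26b turned to −0.01. Over the 11 other ways of processing, bta-miR-26a lay between 0.01 and 0.08 and bta-miR-26b between −0.02 and 0.04, with no call in any of them.

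**Figure D4:**
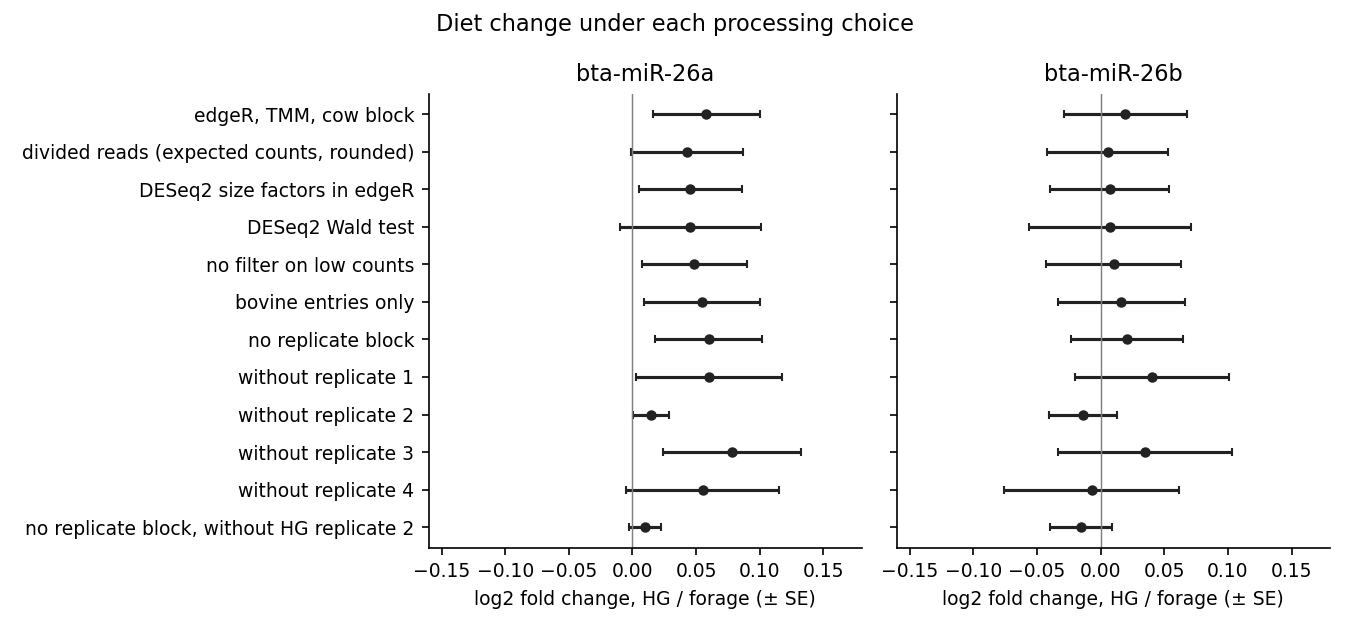
Log2 fold change from the forage to the HG diet for bta-miR-26a (left) and bta-miR-26b (right), with the standard error as bars, under edgeR with TMM and the cow block (top line) and 11 other ways of processing. Bta-miR-26a stays between 0.01 and 0.08 and bta-miR-26b between −0.02 and 0.04.

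A comparison of the paralogues depends on how shared reads are counted. Reads in the tables are counted in full at each entry they map to, and a second count divides each read among those entries. The human homologue entries hsa-miR-26a-5p and hsa-miR-26b-5p stood at the same loci and held the same reads, divided reads and distinct sequences as the bovine entries in 8 of 8 libraries. The human entry of miR-26b ends 1 base earlier, at 107133428. After division bta-miR-26b kept 50.0% of its reads in 7 libraries, as for reads shared by the bovine and the human entry. In forage replicate 2 it kept 49.98%, or 1.33 reads fewer. Bta-miR-26a kept 25.04 to 25.09% in every library, between 6.75 reads (HG replicate 2) and 19.67 reads (forage replicate 2) more than division among 4 entries gives. This proportion is that of a read divided among 4 entries, although the tables list only the precursor on chromosome 5 for miR-26a. In all, 24 of the 268 bovine entries tested kept as small a part of their reads as bta-miR-26a or a smaller one, and the median entry kept 50.0%.

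Division therefore changed the rank of both paralogues. Bta-miR-26a, rank 4 by undivided reads over the 8 libraries, was rank 9 by divided reads (38749 in all). Bta-miR-26b moved from rank 20 to rank 24 (16597 divided reads). In undivided reads bta-miR-26a was 4.56-, 4.62-, 4.58- and 4.68-fold more abundant than bta-miR-26b in forage replicates 1 to 4. It was 4.87-, 4.85-, 4.65- and 4.58-fold more abundant in HG replicates 1 to 4. In divided reads the fold was 2.29 to 2.35 on the forage diet and 2.30 to 2.44 on the HG diet. Bta-miR-26a was the more abundant paralogue in 8 of 8 libraries by both counts.

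**Figure D5:**
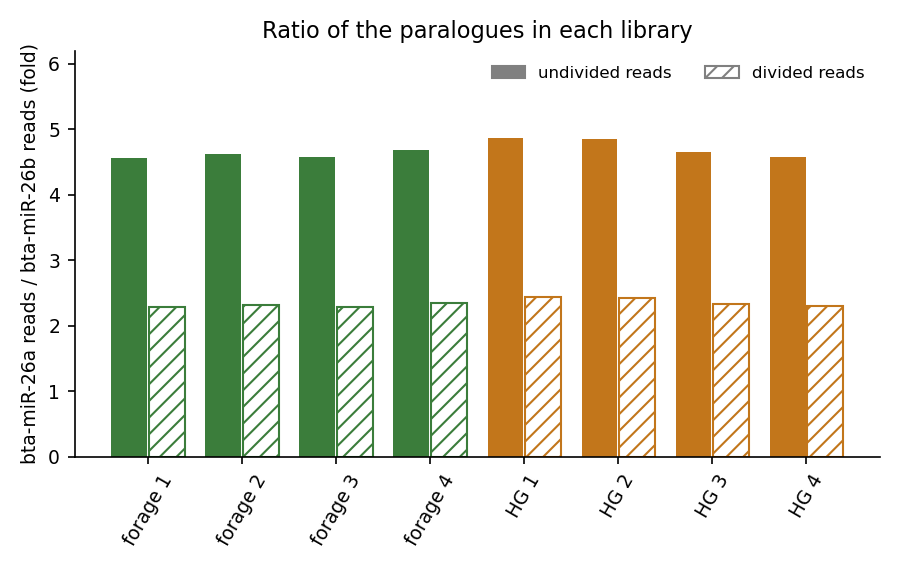
Fold of bta-miR-26a over bta-miR-26b reads in each library, with undivided reads as filled bars and divided reads as hatched bars. Undivided reads give 4.56 to 4.87 and divided reads 2.29 to 2.44, with similar bars on both diets.

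The ratio of 2 entries within a library does not depend on the scaling of that library, and it was compared between diets on this account. The log2 ratio of bta-miR-26b to bta-miR-26a was −2.21 ± 0.02 for forage (SD, n = 4) and −2.24 ± 0.04 for HG (SD, n = 4). It differed by −0.09, −0.07, −0.02 and 0.03 in cows 1 to 4, a mean of −0.04 (exact sign-change permutation test, two-sided, p = 0.375), and the diets overlapped. With divided reads the mean difference was also −0.04 (exact sign-change permutation test, two-sided, p = 0.375). Leaving out each cow in turn moved the mean difference in undivided reads between −0.06 (without cow 4) and −0.02 (without cow 1). HG replicates 1 and 2 had the largest ratios of bta-miR-26a to bta-miR-26b, and HG replicates 3 and 4 had ratios within the forage range. For bta-miR-26c no ratio can be formed.

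The passenger strands, the arms of a precursor that are mostly degraded, were listed for 2 precursors under human names. Hsa-miR-26a-2-3p, at chr5:55977974-55977995 and 16 bases downstream of bta-miR-26a, held 15, 8, 5 and 7 reads in the forage libraries. It held 5, 5 and 4 in HG replicates 1 to 3 and was not listed in HG replicate 4. Hsa-miR-26b-3p, at chr2:107133443-107133463 and 13 bases downstream of bta-miR-26b, held 14, 10, 8 and 2 reads in the forage libraries. It held 5, 6 and 5 in HG replicates 1, 3 and 4 and was not listed in HG replicate 2. For both, the diets overlapped. Their reads were not divided with any other entry.

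Passenger reads came to 31.7 per 100000 reads of bta-miR-26a (95% Wilson interval 24.0 to 41.9) and to 151 per 100000 reads of bta-miR-26b (95% Wilson interval 114 to 198), over all libraries pooled. The reads of bta-miR-26a are those of every precursor with this mature sequence, whereas hsa-miR-26a-2-3p belongs to mir-26a-2. By diet, the proportion for miR-26a was 40.5 (95% Wilson interval 29.1 to 56.3) on forage and 20.5 (12.2 to 34.5) on HG, and for miR-26b it was 181 (130 to 253) and 111 (68.2 to 180). These intervals cover counting error only and do not allow for the spread between cows. In the test across all entries, hsa-miR-26a-2-3p had a log2 fold change of −0.85 (SE 0.75, edgeR adjusted p = 0.788) and hsa-miR-26b-3p one of −0.64 (SE 0.75, edgeR adjusted p = 0.830). When each cow was left out in turn, hsa-miR-26a-2-3p lay between −1.17 and −0.31 (without cow 4; without cow 1 it fell below the minimum and was not tested) and hsa-miR-26b-3p between −1.09 (without cow 4) and −0.20 (without cow 2). These strands had 49 and 50 reads in all, and neither was called.

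The tables also count how many distinct read sequences were assigned to each entry, which reflects trimmed or extended forms as well as sequencing errors. Bta-miR-26a had 137, 133, 132 and 112 distinct sequences in the forage libraries and 116, 111, 121 and 125 in the HG libraries. Bta-miR-26b had 63, 59, 65 and 50, then 48, 41, 43 and 50. Per 1000 reads, bta-miR-26a had 6.05 ± 0.715 for forage (SD, n = 4) and 6.999 ± 0.671 for HG (SD, n = 4). Bta-miR-26b had 12.8 ± 1.63 and 12.8 ± 2.26 (SD, n = 4). These values were neither brought to equal depth nor tested, and the HG libraries held fewer miR-26 reads in all (68147 against 86389 for bta-miR-26a).

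Other miRNAs known to act on the same target were read from the same fit. Of 8 miRNAs that target EZH2, 7 were tested (bta-miR-138 was below the minimum), 0 were called, 3 were higher and 4 lower on the HG diet, with a median log2 fold change of −0.01 beside 0.03 for all entries. Among them bta-miR-101, which shares EZH2 with miR-26a as its best-known target, held 0.736% ± 0.0115 of the miRNA reads for forage and 0.708% ± 0.0618 for HG (SD, n = 4), with a log2 fold change of −0.01. Bta-miR-124a and bta-miR-124b, both among the 4 lower, rest on the same reads but entered the counts and the median separately. Of the cell type markers 0 were called in the same fit. On the HG diet 0 of 3 erythrocyte markers were higher (median log2 fold change −0.08), as were 2 of 6 leukocyte markers (−0.05), 6 of 6 epithelial markers (0.16) and 6 of 7 stromal and smooth muscle markers (0.18), with HG replicate 2 included. Of all entries tested, 210 of 377 were higher. Without HG replicate 2, marker sums on the HG diet were 19.85 to 20.17% of miRNA reads for erythrocytes (forage 20.20 to 20.61%). They were 2.26 to 2.30% for leukocytes (forage 2.29 to 2.33%) and 2.04 to 2.13% for epithelium (forage 2.07 to 2.11%). For stroma and smooth muscle they were 6.59 to 7.08% (forage 6.58 to 6.86%). No entry of miR-1297 or miR-4465, which carry the seed of miR-26, was listed.

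The entries whose pattern over the libraries was most like that of each paralogue were sought among 123 bovine entries with at least 1000 reads, by Pearson's r of log2(CPM + 1). For bta-miR-26a these were the endothelial bta-miR-126-3p (r = 0.99), bta-miR-27a-3p (0.99), bta-miR-23b-3p (0.99), bta-miR-143 (0.99) and bta-miR-10174-3p (0.99) over 8 libraries. For bta-miR-26b they were bta-miR-99a-5p (r = 0.93), bta-miR-7 (0.90), bta-miR-146a (0.88), bta-miR-143 (0.87) and bta-let-7f (0.86). All points share the scaling of their library and come in pairs from the same cows. HG replicate 2 weighed heavily: without it, bta-miR-26a was most like the muscle miRNA bta-miR-1 (r = 0.93 over 7 libraries), which ranked 97 of 123 over 8 libraries with r = −0.65. Bta-miR-99a-5p stayed the most like bta-miR-26b (r = 0.88 over 7 libraries). The median candidate had r = 0.44 with bta-miR-26a and 0.40 with bta-miR-26b over 8 libraries, and 0.14 and 0.05 over 7. The paralogues themselves had r = 0.82 (Spearman's rho 0.43) over 8 libraries and r = 0.27 (rho 0.14) over 7, so that their likeness rested largely on HG replicate 2.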

How the data were processed

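Small RNA of rumen fluid was sequenced as 8 libraries (4 cows, 2 diets). Per the labels and the study's methods, reads were demultiplexed with bcl2fastq 2.20, trimmed with Skewer and assigned with sRNAbench and Bowtie (genome UMD3.1, miRBase entries of cow and human). The authors deposited whole read counts per entry, counts of distinct sequences, expected counts (each read divided among its entries), RPM of all reads, a score (RPM of miRNA reads) and a table of normalized signal. RPM and score were used to recover library totals. The deposited normalized signal was checked to equal divided reads over a size factor, within rounding, for 377 of 377 entries in each library.

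Entries that reached 10 reads in 1 library or more were tested with edgeR 4.0.16 (R 4.3.3; TMM, glmQLFit and glmQLFTest, two-sided, Benjamini-Hochberg over 377 entries, held against 0.05), with cow and diet as in the study's model. Standard errors were taken from the F statistic. The fit was tested on simulated data. DESeq2 1.42.0 was an alternative, and expected counts were rounded to whole numbers for the fit. Shares and ratios used exact sign-change permutation tests over pairs. Other steps used Python 3.11.15, numpy 2.4.6, pandas 2.3.3 and scipy 1.17.1.

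Libraries were paired by replicate number, since the same 4 cows gave both diets and the labels number them alike. Within a cow, the deviations of its libraries from the diet means had correlations across entries of 0.00, −0.06, 0.06 and 0.01, which does not show the pairing. Between libraries with unlike numbers they ran from −0.16 to 0.21. The members, the lists and the tests were chosen with earlier results of these data known. Named were the members, other miR-26 entries, miR-1297 and miR-4465, the 5 bovine entries most like each member, and list members beside a miR-26 result. The comparison of CVs was added after the values were seen, as were the values for HG replicate 2 against the other libraries, and the entries set beside them, and bta-miR-1, were named then. Mature sequences were not analysed here. The result of 1 list of miRNAs is not reported here.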

Additional observations from a re-analysis of the deposited data

Results flagged for a closer look

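Of 44 groups of 4 values examined for the miR-26 entries, 4 held a library that lay far from the other 3 by Dixon's criterion at 95%, which chance meets in about 1 group of 20. In HG replicate 3, bta-miR-26a reached 13321 RPM of all reads and bta-miR-26b 2864 RPM, both far above the other HG libraries, and miRNA reads made up 27.8% of all reads in that library. In forage replicate 1, hsa-miR-26a-2-3p reached 8.90 RPM on 15 reads, in a library with 29.3% miRNA reads. In forage replicate 2, bta-miR-26b kept 49.98% of its reads after division (49.9753%), while the other 3 forage libraries were at 50.0%. None of the shares of miRNA reads, CPM values or paralogue ratios of bta-miR-26a and bta-miR-26b was singled out in this way. HG replicate 2 was not flagged either, although it had 35327 CPM of bta-miR-26a against 30949 to 31780 in the other HG libraries.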

How the results depend on the processing

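The 11 alternatives were divided reads, DESeq2 size factors in edgeR, DESeq2's own test, no filter on low counts, bovine entries alone, no replicate block, no replicate block without HG replicate 2, and leaving out each cow. Bta-miR-26a kept its direction in all 11, from 0.00990 to 0.0783 (adjusted p 0.678 to 0.999). Bta-miR-26b, at 0.02, changed sign in 3: it was −0.0154 with no replicate block and without HG replicate 2, and it ran from −0.0139 (without cow 2) to 0.0403 (without cow 1) when each cow was left out, with −0.00694 without cow 4; hsa-miR-26b-5p, which rests on the same reads, had the same values. Adjusted p for bta-miR-26b was 0.842 to 0.999. With no replicate block the values were 0.06 for bta-miR-26a and 0.02 for bta-miR-26b, and the block changed no call. Of the entries each alternative tested (268 to 565), 0 were called in 10 of 11 alternatives (smallest adjusted p 0.263 to 0.999). Leaving out each cow gave 0 to 2 calls, the 2 without cow 2: bta-miR-2285ak-5p and bta-miR-2285bh, with identical fitted values (edgeR adjusted p = 0.0281). Relative to all reads, the difference in the share of bta-miR-26a turned to −0.177 percentage points (exact sign-change permutation test, p = 0.75). Without HG replicate 2, 2 of the 5 entries most like bta-miR-26a and 3 of the 5 most like bta-miR-26b stayed among the first 5. The cause of these changes was not tested. The passenger strands had no more than 15 reads in a library.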
